A study of Mus musculus with 36 samples.

Results

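Genes that are widely used as markers of endothelial cells were followed in the transcriptomes of fast and slow muscle of WT and ∆Ig3-MuSK mice. The 10 genes were Pecam1, Cdh5, Cldn5, Kdr, Flt1, Tek, Tie1, Vwf, Emcn and Nos3, and they were chosen by name from the 51912 gene rows of the deposited count tables, so that their levels could be compared across the 4 groups. The groups were the soleus and the TA (tibialis anterior) of WT and of homozygous ∆Ig3-MuSK mice, each with 9 RNA-seq libraries made from whole muscles of male C57BL/6 mice at 3 months of age. ∆Ig3-MuSK mice carry a germline deletion, made with CRISPR-Cas9, of the Musk exons that encode the third immunoglobulin-like domain, the part of the receptor that binds BMP, and the WT mice do not carry it. The deletion is therefore present in endothelial cells as well as in muscle fibers. No group received a drug or an injury. Libraries were prepared with the NEBNext Ultra kit for soleus and the NEBNext Ultra II kit for TA, so a difference between the muscles and a difference between the kits cannot be told apart.

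Blood vessels are lined by endothelial cells, and in skeletal muscle most of them form the capillaries that run alongside the fibers. These cells are held together by junction proteins, they sense vascular endothelial growth factor (VEGF) and angiopoietins through receptor tyrosine kinases, and they make nitric oxide. Slow oxidative muscle such as the soleus is known for a denser capillary bed than fast muscle such as the TA. In RNA from whole muscle, fewer endothelial cells and less RNA per endothelial cell cannot be told apart, so the values below are levels of transcripts and not numbers of capillaries.

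Between 43492062 and 78660422 reads were counted on genes per library. The 10 endothelial genes took 398 to 6266 counts each per library, and together 0.0223 to 0.0603% of the counts. Levels are given as CPM, counts relative to the library total after scaling for library composition with TMM factors over all 36 libraries. Musk itself ran from 12.5 to 18.4 CPM in WT soleus and from 8.07 to 17.5 CPM in ∆Ig3-MuSK soleus, and it ran from 2.86 to 5.58 CPM in WT TA and from 2.62 to 4.01 CPM in ∆Ig3-MuSK TA. A count over the whole gene does not resolve the deleted exons. The slow myosin gene Myh7 was at 6539 CPM or more in each soleus library and at 37.5 CPM or less in each TA library, as the muscle labels state. A few libraries stood apart and are named beside the results they touch. WT soleus replicate 1 was the lowest of its group for 9 of the 10 genes, and WT TA replicates 3 and 5 were each among the lowest 2 of their group for 8 of the 10. Long genes were also low relative to short ones in those same TA libraries. The deviation of log2 CPM from the mean of the TA libraries had slopes of −0.0627 and −0.0811 per doubling of exon length there, while the other WT TA libraries had slopes from −0.0225 to 0.0202.

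Start sites and 5′ flanks were looked up for the endothelial genes in the RefSeq promoter table of GRCm38.p6, where 6 of the 10 were matched (Kdr, Flt1, Tek, Tie1, Emcn and Cldn5). ETS-family transcription factors, among them Erg and Fli1, are known regulators of endothelial genes and bind a GGAA core. The 4 receptor genes are shown because the comparisons below turn on them, each as 250 bases before and 50 bases after the start, with capitals marking CAGGAA or CCGGAA on either strand (TTCCTG or TTCCGG as written here). Their positions are chr5:75978406-75978705 on the minus strand for Kdr, chr5:147725962-147726261 on the minus strand for Flt1, chr4:94739039-94739338 on the plus strand for Tek and chr4:118489800-118490099 on the minus strand for Tie1.
Kdr: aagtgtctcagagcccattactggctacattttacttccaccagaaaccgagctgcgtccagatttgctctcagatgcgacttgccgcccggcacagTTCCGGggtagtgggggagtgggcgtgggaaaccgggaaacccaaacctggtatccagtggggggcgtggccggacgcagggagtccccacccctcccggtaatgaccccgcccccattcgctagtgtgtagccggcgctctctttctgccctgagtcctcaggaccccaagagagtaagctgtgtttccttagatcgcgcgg
Flt1: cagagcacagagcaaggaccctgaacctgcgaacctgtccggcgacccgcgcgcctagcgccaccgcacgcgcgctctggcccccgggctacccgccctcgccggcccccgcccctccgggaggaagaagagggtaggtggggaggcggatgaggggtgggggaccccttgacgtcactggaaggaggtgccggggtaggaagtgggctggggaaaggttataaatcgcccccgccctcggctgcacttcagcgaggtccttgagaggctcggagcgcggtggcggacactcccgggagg
Tek: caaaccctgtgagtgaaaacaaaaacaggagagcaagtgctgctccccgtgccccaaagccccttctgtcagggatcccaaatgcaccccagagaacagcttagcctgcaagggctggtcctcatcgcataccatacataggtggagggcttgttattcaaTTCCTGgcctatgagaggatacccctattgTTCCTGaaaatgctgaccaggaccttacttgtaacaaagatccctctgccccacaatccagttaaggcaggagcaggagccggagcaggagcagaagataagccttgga
Tie1: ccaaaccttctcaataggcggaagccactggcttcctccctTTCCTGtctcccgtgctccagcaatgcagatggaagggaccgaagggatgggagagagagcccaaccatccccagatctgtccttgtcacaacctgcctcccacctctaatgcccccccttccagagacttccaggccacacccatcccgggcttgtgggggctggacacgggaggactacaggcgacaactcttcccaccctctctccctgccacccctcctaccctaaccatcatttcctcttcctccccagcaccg

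CAGGAA occurred in the windows of Tek (2 copies), Tie1 (1 copy) and Emcn (2 copies), and in 30.6% of all 32851 promoter windows of the same length. CCGGAA occurred in that of Kdr alone among the 6, and in 14.9% of all windows. Either word was present in 4 of the 6 genes and in 41.4% of all windows. The Flt1 window held neither word and was the richest in G and C of the 4 shown, at 70.7% against a median of 52.7% over all windows. GGAA after other bases was not marked or counted, and it does occur in the Flt1 window. These are matches of letters and not measured binding sites.

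The junction genes were among the most abundant of the 10. Pecam1, on chromosome 11 (GRCm38, 106654217 to 106750628), encodes the adhesion molecule CD31 with which capillaries are usually stained. It ran from 70.0 to 90.5 CPM in WT soleus (median 79.2) and from 67.1 to 82.2 CPM in ∆Ig3-MuSK soleus (median 75.6). In TA it ran from 46.5 to 54.7 CPM in WT (median 50.6) and from 46.9 to 58.8 CPM in ∆Ig3-MuSK (median 54.2). Every soleus library thus lay above every TA library, and the genotypes overlapped in both muscles. Cdh5 encodes VE-cadherin, the adhesion molecule of endothelial adherens junctions. Its levels were 80.5 to 106 CPM in WT soleus (median 92.8) and 69.0 to 96.6 CPM in ∆Ig3-MuSK soleus (median 82.4), against 55.6 to 84.4 CPM in WT TA (median 73.1) and 68.5 to 88.8 CPM in ∆Ig3-MuSK TA (median 74.1). The ranges of all 4 groups overlapped for Cdh5. Cldn5 encodes claudin-5, a tight junction protein, and was the most variable of the 10 genes, with a coefficient of variation between 28.7 and 40.1% within a group. It ran from 11.2 to 31.4 CPM in WT soleus (median 14.8), from 7.35 to 20.01 CPM in ∆Ig3-MuSK soleus (median 13.2), from 12.8 to 26.1 CPM in WT TA (median 16.6) and from 9.41 to 27.6 CPM in ∆Ig3-MuSK TA (median 13.4). No group of libraries stood clear of another for Cldn5.

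The VEGF receptors are the genes through which endothelial cells read their main growth factor. Kdr encodes VEGFR2, the principal signaling receptor, and lies on chromosome 5 (75932827 to 75978458). It ran from 66.5 to 97.6 CPM in WT soleus (median 85.2) and from 37.2 to 84.3 CPM in ∆Ig3-MuSK soleus (median 67.0). In TA its range was 35.5 to 65.2 CPM in WT (median 50.5) and 26.4 to 56.1 CPM in ∆Ig3-MuSK (median 47.9). In WT the soleus libraries all lay above the TA libraries, while in ∆Ig3-MuSK the muscles overlapped, and 4 ∆Ig3-MuSK soleus libraries lay below the whole WT soleus range. Flt1, also on chromosome 5 (147561604 to 147726011), encodes VEGFR1, which binds VEGF tightly, signals weakly and also exists as a soluble decoy. It ran from 58.6 to 86.5 CPM in WT soleus (median 79.2), from 57.2 to 101 CPM in ∆Ig3-MuSK soleus (median 80.8), from 30.4 to 63.2 CPM in WT TA (median 58.1) and from 54.5 to 95.3 CPM in ∆Ig3-MuSK TA (median 65.8). For Flt1, 6 of the 9 ∆Ig3-MuSK TA libraries were above the highest WT TA library, and the genotypes overlapped in soleus.

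Tek and Tie1, both on chromosome 4, encode the receptors of the angiopoietin system, which steadies mature vessels. Tek encodes TIE2, which binds the angiopoietins, and ran from 27.3 to 33.9 CPM in WT soleus (median 29.8) and from 22.7 to 32.7 CPM in ∆Ig3-MuSK soleus (median 28.3). Its TA levels were 16.8 to 21.1 CPM in WT (median 19.1) and 16.4 to 20.6 CPM in ∆Ig3-MuSK (median 19.8). As for Pecam1, no soleus library overlapped a TA library of the same genotype. Tie1, an orphan receptor that pairs with TIE2, was spread less between the muscles. It ran from 37.1 to 50.2 CPM in WT soleus (median 46.4), from 31.9 to 48.5 CPM in ∆Ig3-MuSK soleus (median 45.1), from 30.6 to 45.5 CPM in WT TA (median 41.1) and from 41.5 to 47.5 CPM in ∆Ig3-MuSK TA (median 44.5). All 4 groups overlapped for Tie1, and 9 of 9 ∆Ig3-MuSK TA libraries were above the WT TA mean.

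Vwf encodes von Willebrand factor, the clotting protein that endothelial cells store and secrete. It ran from 29.1 to 40.0 CPM in WT soleus (median 34.5), from 13.8 to 41.5 CPM in ∆Ig3-MuSK soleus (median 33.5), from 10.5 to 28.4 CPM in WT TA (median 19.1) and from 18.1 to 31.0 CPM in ∆Ig3-MuSK TA (median 26.0). The muscles were separate in WT and overlapped in ∆Ig3-MuSK. Emcn encodes endomucin, a sialomucin of capillary and venous endothelium. Its levels were 9.39 to 13.0 CPM in WT soleus (median 11.7), 8.72 to 12.5 CPM in ∆Ig3-MuSK soleus (median 10.7), 7.45 to 13.0 CPM in WT TA (median 9.11) and 6.94 to 9.59 CPM in ∆Ig3-MuSK TA (median 8.04). For Emcn the group medians were ordered by muscle, and neighboring groups overlapped. Nos3 encodes endothelial nitric oxide synthase, which relaxes the vessel wall. It ran from 14.0 to 17.98 CPM in WT soleus (median 15.9), from 11.7 to 16.7 CPM in ∆Ig3-MuSK soleus (median 15.01), from 8.99 to 17.4 CPM in WT TA (median 15.2) and from 14.2 to 20.4 CPM in ∆Ig3-MuSK TA (median 16.4). Nos3 and Cldn5 were the only genes of the 10 whose highest group median was in TA, and all groups overlapped for Nos3. Exons of Nos3 overlap those of Gm15587 by 1040 bp and those of Atg9b by 294 bp on the opposite strand, and without strand information those reads cannot be assigned.

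Levels were compared between genes per kilobase of exon. In WT soleus Cdh5 was highest at 22.0 ± 1.86 CPM per kb (mean ± SD, n = 9), followed by Pecam1 (12.9 ± 0.999), Cldn5 (12.6 ± 4.84), Kdr (9.36 ± 1.24), Tie1 (9.26 ± 0.808), Tek (6.43 ± 0.489), Flt1 (5.76 ± 0.634), Nos3 (3.88 ± 0.334), Vwf (2.17 ± 0.185) and Emcn (2.12 ± 0.248). The steps between Pecam1 and Cldn5, between Kdr and Tie1 and between Vwf and Emcn were smaller than 1 SD of either gene. Cdh5 was the highest of the 10 in all 4 groups, at 19.3 ± 2.35 CPM per kb in ∆Ig3-MuSK soleus, 17.3 ± 2.34 in WT TA and 18.3 ± 1.55 in ∆Ig3-MuSK TA. Vwf and Emcn were the lowest pair in each group. Summed over the 10 genes, the level ran from 409 to 550 CPM in WT soleus (median 495), from 364 to 501 CPM in ∆Ig3-MuSK soleus (median 444), from 275 to 401 CPM in WT TA (median 358) and from 348 to 401 CPM in ∆Ig3-MuSK TA (median 376). Every WT soleus library was above every WT TA library in this sum, whereas ∆Ig3-MuSK soleus overlapped both TA groups.

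**Figure D1:**
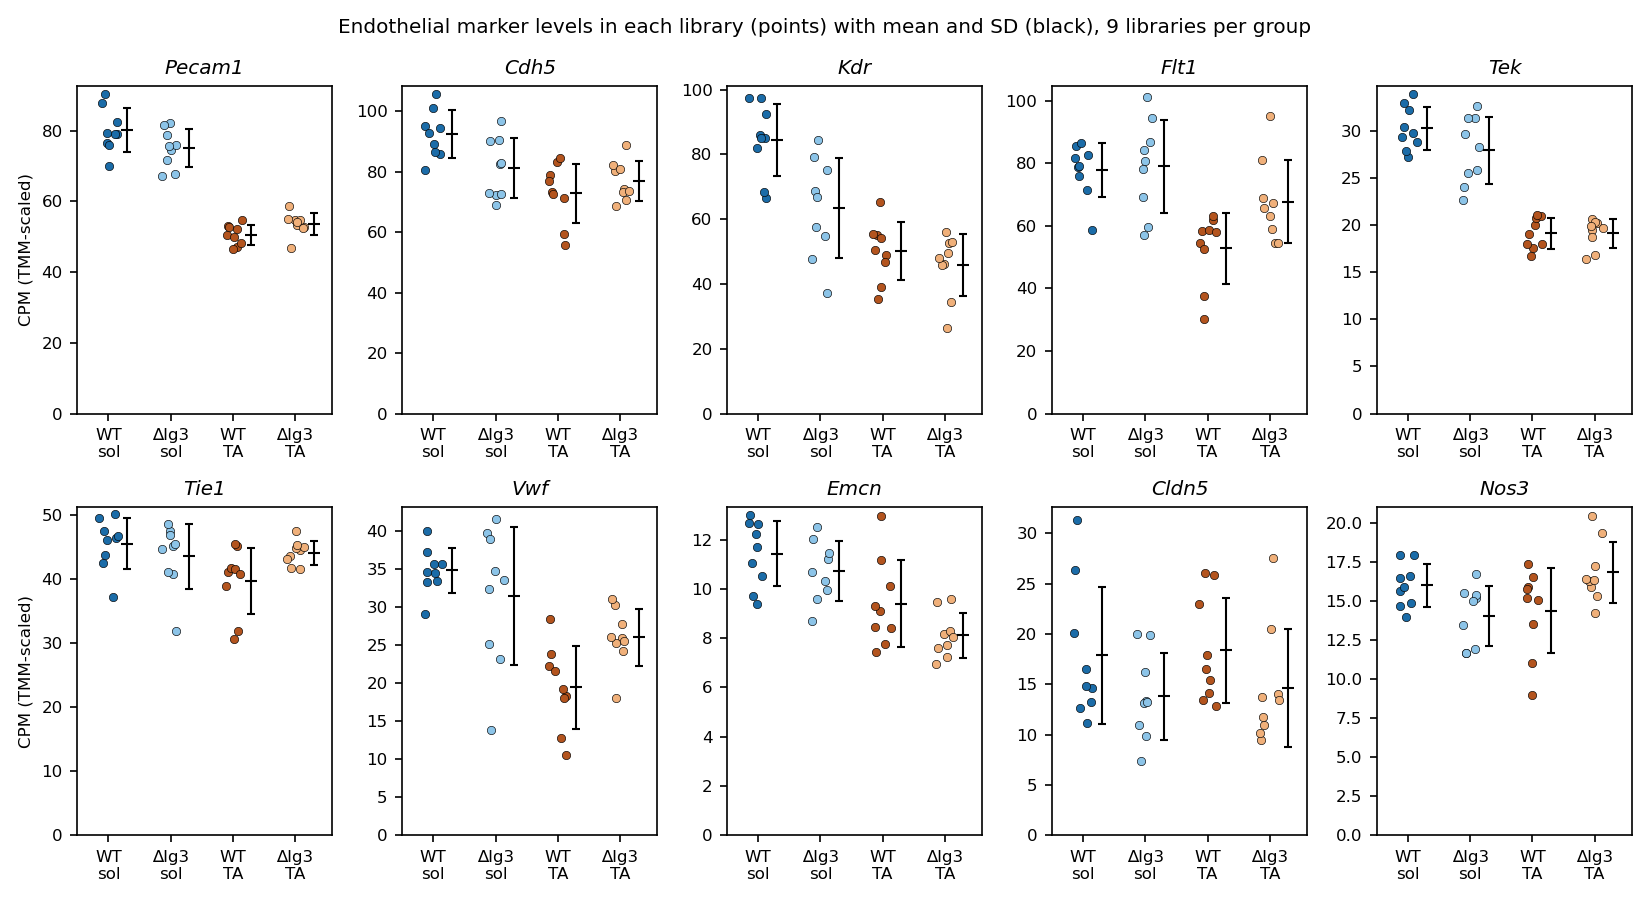
CPM of the 10 endothelial genes (vertical axes) in the 9 libraries of each of the 4 groups, with each point a library and the bar the group mean with its SD. Pecam1 and Tek separate every soleus library from every TA library of the same genotype, whereas Cldn5 and Nos3 overlap throughout.

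Soleus was first compared with TA in WT, to ask whether the slow muscle held more endothelial transcript. With edgeR's quasi-likelihood test over 20841 genes, 7 of the 10 genes were called higher in WT soleus (Benjamini-Hochberg adjusted p under 0.05 and at least a 1.2-fold change) and 0 lower, where 30.2% of all genes were called higher and 27.3% lower. Their median log2 fold change was 0.45, beside 0.02 over all genes tested. The steepest was Vwf, 1.79-fold higher in soleus (log2 fold change 0.84 ± 0.15 SE, adjusted p = 8.22e-06). Kdr was 1.69-fold higher (0.76 ± 0.13, adjusted p = 4.96e-06). Pecam1 and Tek differed by less in size but with the smallest errors, both 1.58-fold higher (0.66 ± 0.05, adjusted p = 6.61e-15, and 0.66 ± 0.06, adjusted p = 1.78e-11). Flt1 was 1.47-fold, Cdh5 1.27-fold and Emcn 1.22-fold higher (adjusted p from 8.99e-05 to 0.00505). Tie1 passed the p limit but not the fold limit (1.15-fold, adjusted p = 0.0124). Nos3 (0.15, 95% interval −0.03 to 0.34, adjusted p = 0.140) and Cldn5 (−0.04, −0.45 to 0.37, adjusted p = 0.880) were not called. The estimates of the muscle difference were therefore uneven across the panel, largest in Vwf and Kdr. A difference was not detected in Cldn5 and Nos3, and the genes were not tested against each other. Pecam1, Kdr, Tek and Vwf had no overlap of WT libraries, against 14.6% of all genes with every soleus library above every TA library. Without WT TA replicates 3 and 5, left out after their low levels had been seen, 6 of the 10 were called. Cdh5 at 0.25 (adjusted p = 0.00121) no longer reached the fold limit. In that fit Vwf stood at 0.68 and Kdr at 0.65. Pecam1 stayed at 0.62 or more and Tek at 0.61 or more under every alternative, so the lead of Vwf and Kdr depended on those libraries.

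The same comparison in ∆Ig3-MuSK called 4 of the 10 genes higher in soleus and 0 lower, where 28.5% of all genes were called higher and 27.6% lower. The median log2 fold change of the 10 was 0.25, beside −0.00 over all genes. Tek was 1.46-fold higher (0.55 ± 0.06, adjusted p = 2.08e-09), Pecam1 1.40-fold (0.48 ± 0.05, adjusted p = 3.72e-11), Kdr 1.39-fold (0.47 ± 0.13, adjusted p = 0.00203) and Emcn 1.32-fold (0.40 ± 0.09, adjusted p = 0.000158). These 4 genes were also among the 7 called in WT. Flt1 (0.22, −0.01 to 0.46), Vwf (0.27, −0.02 to 0.57), Cdh5 (0.08, −0.07 to 0.22) and Tie1 (−0.02, −0.16 to 0.12) were not called, and Cldn5 again showed no detectable difference (−0.08, −0.50 to 0.33). Nos3 was lower in ∆Ig3-MuSK soleus than in TA (−0.26 ± 0.09, adjusted p = 0.0137), just under the 1.2-fold limit. It was called lower by DESeq2 and under several other settings, while without the 2 label numbers of the highest Flt1:Kdr ratios it stood at −0.18 (edgeR adjusted p = 0.132). Pecam1 and Tek kept the muscles apart in every ∆Ig3-MuSK library, and 14.8% of all genes did so in this direction.

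**Figure D2:**
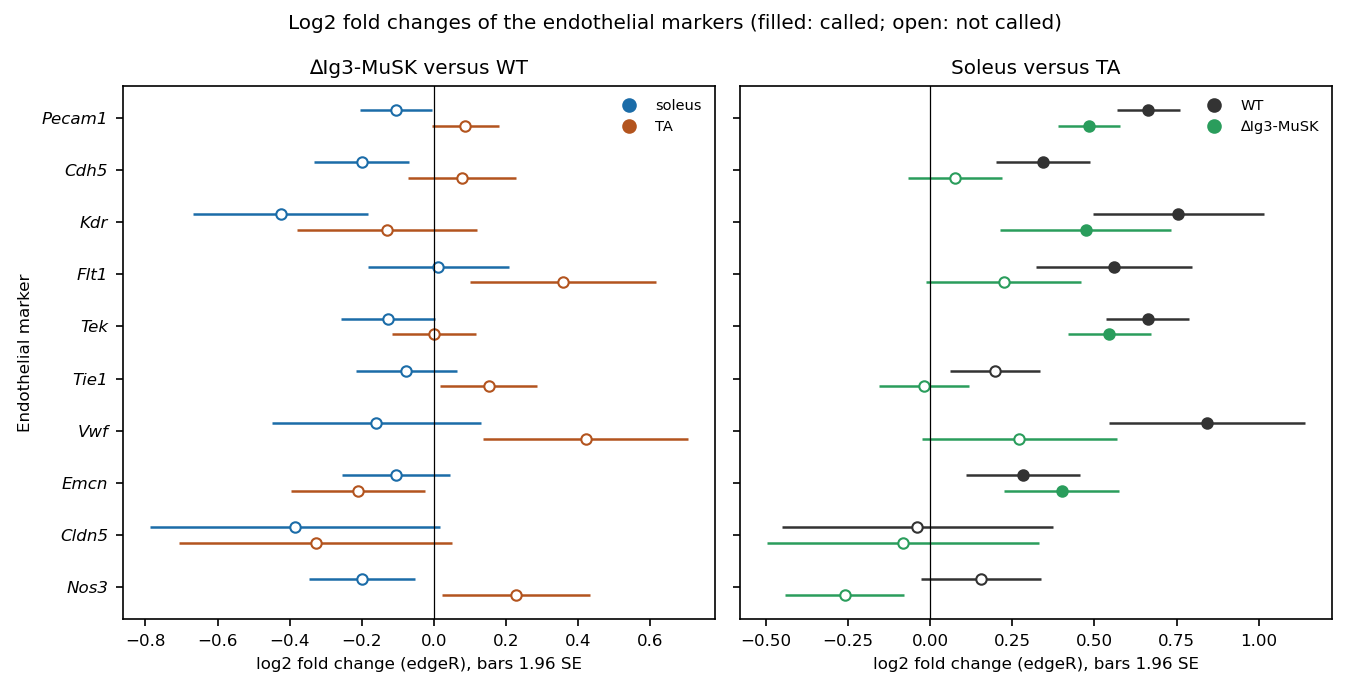
Log2 fold changes of the 10 endothelial genes (horizontal axes) for ∆Ig3-MuSK against WT in each muscle and for soleus against TA in each genotype, with bars for the 95% interval of the edgeR estimate and filled points for called genes. No genotype effect is filled, and for soleus against TA 7 WT and 4 ∆Ig3-MuSK points are filled, all to the right of 0.

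The effect of the MuSK Ig3 domain was then read within each muscle. In soleus 0 of the 10 genes were called higher or lower in ∆Ig3-MuSK by edgeR, where 0.365% of 19439 genes were called higher and 0.586% lower. These shares were unstable, since leaving out a single library gave between 14 and 233 genes higher and between 8 and 369 lower, against 71 and 114. Of the 10, 3 had an unadjusted p under 0.05, all with lower levels in the mutant. Over the 10 genes the median was −0.14 on the log2 scale, beside −0.00 over all genes. Without ∆Ig3-MuSK soleus replicate 2 this median was −0.088. That library and ∆Ig3-MuSK soleus replicate 1 had the lowest sums of the 10 genes in soleus (364 and 384 CPM), the highest totals (60426556 and 55580985 counts) and length slopes of −0.0377 and −0.0304. A similar slope of −0.0308 was found in ∆Ig3-MuSK soleus replicate 9, with a sum of 444 CPM and a total of 46397769 counts. Median totals were 45371395 counts in WT soleus and 51110940 in ∆Ig3-MuSK soleus. The mean of the 10 standardised genes went with total counts at r = −0.70 and with the length slope at r = 0.48 over the 18 soleus libraries, and at r = −0.17 and 0.78 over the 18 TA libraries, on deviations from the genotype means. These r are descriptions, and the part of depth and length in the genotype values was not tested. The VEGF receptor Kdr came closest, at 1.34-fold lower (−0.42 ± 0.12 SE, 95% interval −0.67 to −0.18, edgeR adjusted p = 0.0856). All 9 ∆Ig3-MuSK soleus libraries were below the WT mean for Kdr, and 6 WT libraries were above the whole ∆Ig3-MuSK range. DESeq2 and limma-voom each called 1 of the 10 genes lower, and it was Kdr in both. These tools also called more over all genes, limma-voom 1.35% higher and 2.01% lower of 19439 genes. DESeq2 called 165 higher and 324 lower of 20873. Cdh5 (−0.20, −0.33 to −0.07, edgeR adjusted p = 0.123) and Nos3 (−0.20, −0.35 to −0.05, edgeR adjusted p = 0.161) were the other genes with an unadjusted p under 0.05. Pecam1, the usual capillary marker, stood at −0.11 with an interval of −0.21 to −0.01, although its unadjusted p was not under 0.05. The interval rests on a normal approximation and is narrower than the test gives, so it sets no firm bound on a loss. Flt1 was even between the genotypes at 0.01 (−0.18 to 0.21, edgeR adjusted p = 0.962). Cldn5 (−0.39, −0.79 to 0.02) and Vwf (−0.16, −0.45 to 0.13) had wide intervals, and those of Tek, Tie1 and Emcn lay between −0.26 and 0.06. ∆Ig3-MuSK soleus replicates 4 and 5 had high Flt1 relative to Kdr and the lowest Kdr of their group (37.2 and 47.6 CPM). They were left out after this had been seen, which by itself moves the Kdr estimate toward 0. In the fit without them Kdr stood at −0.30 (edgeR adjusted p = 0.134) and all 10 estimates were below 0. Over all genes that fit called 1 higher and 4 lower. Without WT soleus replicate 1, Kdr stood at −0.46 and was called (edgeR adjusted p = 0.0404), in a fit that called 1.19% of all genes higher and 1.89% lower. That library had the lowest Kdr of WT soleus (66.5 CPM), so leaving it out by itself moves the Kdr estimate away from 0.

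In TA 0 of the 10 genes were called in either direction by edgeR, and 0 by DESeq2 and limma-voom. Over all 20075 genes edgeR called 0.0149% higher and 0% lower, and limma-voom 0.598% and 0.149%. DESeq2 called 169 higher and 68 lower of 21097 genes. An unadjusted p under 0.05 was found for 5 of the 10, of which Vwf, Flt1, Tie1 and Nos3 had higher levels in ∆Ig3-MuSK and Emcn had lower levels. Vwf was 1.34-fold higher (0.42 ± 0.14 SE, 0.14 to 0.71, edgeR adjusted p = 0.161) and Flt1 1.28-fold higher (0.36 ± 0.13, 0.10 to 0.62, edgeR adjusted p = 0.163). Tie1 (0.15, 0.02 to 0.29), Nos3 (0.23, 0.02 to 0.43) and Emcn (−0.21, −0.40 to −0.02) had edgeR adjusted p from 0.190 to 0.196. Tek was even at 0.00 (−0.12 to 0.12), and Kdr stood at −0.13 (−0.38 to 0.12). The median of the 10 was 0.08, beside −0.00 over all genes, which is opposite in sign to that in soleus. WT TA replicates 3 and 5 were low for most of the 10 genes and were left out after that had been seen. Leaving out low WT libraries by itself lowers the estimates of those genes, so the values below are a description. The part of gene length in them was not tested. Without WT TA replicates 3 and 5 Vwf stood at 0.27 (edgeR adjusted p = 0.383) and Flt1 at 0.22 (edgeR adjusted p = 0.430), 5 of the 10 estimates were below 0, and the median was 0.028. Without WT TA replicate 5 alone the median was 0.050.

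The difference between the genotype effects, soleus minus TA, was tested as an interaction over the 36 libraries. It was below 0 for 9 of the 10 genes, with a median of −0.24 beside −0.00 over all genes, and edgeR called 0 of the 10, as it called 0% of 20841 genes in each direction. Of the 10, 5 had an unadjusted p under 0.05. The difference was −0.42 ± 0.13 for Nos3 (−0.67 to −0.16, edgeR adjusted p = 0.103), −0.57 ± 0.21 for Vwf (−0.99 to −0.15, edgeR adjusted p = 0.117), −0.18 for Pecam1 (−0.32 to −0.05, edgeR adjusted p = 0.116) and −0.27 for Cdh5 (−0.47 to −0.06, edgeR adjusted p = 0.122). Emcn alone lay above 0, at 0.12 (−0.13 to 0.36). The other tools called more, limma-voom 3 of the 10 (Nos3, Vwf and Cdh5, adjusted p from 0.0400 to 0.0481) and DESeq2 1 (Nos3, adjusted p = 0.0445). They also called more over all genes. With limma-voom 3.44% were called above 0 and 3.05% below 0, and with DESeq2 776 and 323 of 10171 genes. Without WT TA replicates 3 and 5, left out after their low levels had been seen, Nos3 stood at −0.30 (edgeR adjusted p = 0.250). Without WT TA replicate 9, the highest of its group for 7 of the 10 genes, edgeR called Nos3 (−0.45, adjusted p = 0.0423) and Vwf (−0.66, adjusted p = 0.0496), along with 845 genes in one direction and 605 in the other. Leaving out WT TA replicate 9 by itself moves the Nos3 and Vwf estimates away from 0. Without ∆Ig3-MuSK TA replicate 3 edgeR called 637 and 345 genes. The interaction calls thus depended on single libraries and on the test.

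The ligands of these receptors were read beside them. Vegfa, the main ligand of KDR and FLT1, was lower in soleus than in TA, by 0.40 on the log2 scale in WT (adjusted p = 3.5e-05) and by 0.65 in ∆Ig3-MuSK (adjusted p = 6.52e-09), opposite in direction to Kdr. It ran from 151 to 222 CPM in WT soleus (median 171), from 124 to 178 CPM in ∆Ig3-MuSK soleus (median 147), from 182 to 274 CPM in WT TA (median 225) and from 188 to 270 CPM in ∆Ig3-MuSK TA (median 246). Its genotype effect in soleus was −0.22 ± 0.07 (edgeR adjusted p = 0.122). Angpt1, which activates TIE2 and comes largely from cells around the vessel, was higher in soleus by 1.09 ± 0.08 in WT (adjusted p = 1.08e-14) and 1.28 ± 0.08 in ∆Ig3-MuSK (adjusted p = 1.19e-16). Vegfd was higher in soleus in both genotypes (0.74 and 0.60), as its receptor gene Flt4 was in WT (0.54, adjusted p = 0.000161). Vegfc (0.28) and Apln (0.48), a peptide made by sprouting endothelium, were called higher in WT soleus and not in ∆Ig3-MuSK soleus, with no interaction called, and Jag1, a Notch ligand, was called lower in ∆Ig3-MuSK soleus than TA (−0.28, adjusted p = 0.0289). Vegfb (0.14 in WT, 0.25 in ∆Ig3-MuSK) stayed under the fold limit, and Pgf, Angpt2 and Dll4 were not called in either genotype. Of 10 ligands tested, 4 were called higher and 1 lower in WT soleus, against 30.2% and 27.3% of all genes. In ∆Ig3-MuSK soleus 2 of these ligands were called higher and 2 lower, against 28.5% and 27.6% of all genes. None was called for genotype in either muscle by edgeR, while 4 had an unadjusted p under 0.05 in soleus and 5 in TA. Apln had the widest genotype difference of them in soleus, at −0.54 ± 0.16 (edgeR adjusted p = 0.0864). Gdf2 was at 0 in some libraries and was not tested.

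Other lists of vascular genes were read against the 30.2% of all genes called higher and 27.3% called lower in WT soleus. Of 20 other pan-endothelial genes, 7 were called higher, a share near that of all genes, and 2 lower, with a median of 0.14. Ptprb, the phosphatase of VE-cadherin and TIE2, was higher (0.42, adjusted p = 0.00427) and Egfl7, a matrix protein secreted by endothelium, was lower (−0.48, adjusted p = 5.28e-09). Of 7 genes for VEGF and Tie coreceptors and partners, 6 were called higher in WT soleus. In ∆Ig3-MuSK soleus Eng was called higher (0.31) and Notch1 lower (−0.34). Among 9 muscle capillary genes 2 were called higher and 2 lower in WT, again close to the shares over all genes. Cd36, a fatty acid transporter shared by endothelium and fibers, was higher in soleus (1.51 in WT and 1.53 in ∆Ig3-MuSK) and the water channel gene Aqp1 was lower (−0.32 and −0.28). Of the vessel-type genes, 3 of 9 arterial genes (Sema3g among them, 0.37), also near the share of all genes, and 3 of 5 tested venous genes (Ephb4 among them, 0.47) were called higher in WT soleus, while Nr2f2, the regulator of venous identity, was lower (−0.39). Prox1, which marks lymphatic endothelium but is also made by slow fibers, was higher by 4.39. Of 6 oxidative and hypoxia regulators 5 were called higher in WT soleus, with Epas1, the hypoxia factor of endothelium, at 0.38 and Esrra not called at −0.09.

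In ∆Ig3-MuSK soleus the only vascular list genes called against WT were Eng and Acta2, both lower. Eng encodes endoglin, the coreceptor through which endothelial cells bind BMP9 and related ligands. It ran from 39.5 to 74.1 CPM in WT soleus (median 54.9) and from 36.7 to 53.3 CPM in ∆Ig3-MuSK soleus (median 40.5), overlapping, with a log2 fold change of −0.43 ± 0.10 (edgeR adjusted p = 0.0364). Acta2, the smooth muscle actin gene of arterioles, ran from 42.1 to 56.7 CPM in WT soleus (median 50.8) and from 28.1 to 48.0 CPM in ∆Ig3-MuSK soleus (median 39.6), and fell by 0.38 on the log2 scale (edgeR adjusted p = 0.0496). DESeq2 and limma-voom called both genes, but with 1 library left out edgeR called Eng in 5 of 18 fits (adjusted p from 0.0106 to 0.0737) and Acta2 in 3 of 18 (0.0227 to 0.1004), with log2 fold changes from −0.49 to −0.38 and from −0.42 to −0.33. Eng was even between the genotypes in TA (0.03 ± 0.07). Among 5 genes that respond to shear stress, which include Nos3 of the panel, all estimates were below 0 in soleus. Over all genes 9827 of 19439 were below 0. Klf2 stood at −0.72 ± 0.25 (edgeR adjusted p = 0.133) and Klf4 at −0.64 ± 0.19 (edgeR adjusted p = 0.0867), and neither was called. In TA 0 genes of these lists were called. There 8 of 9 arterial genes, 7 of 7 coreceptor genes and 7 of 7 pericyte genes had estimates above 0. By contrast, 4 of 5 vascular smooth muscle genes and 5 of 9 muscle capillary genes had estimates below 0. The widest of those named was that of Notch4 (0.41, edgeR adjusted p = 0.153). Over all genes 9901 of 20075 were above 0 in TA. WT TA replicates 3 and 5, in which long genes were low, were kept for these list values. Without them the median of the endothelial panel went from 0.08 to 0.028. The part of these libraries in the list values was not tested.

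**Figure D3:**
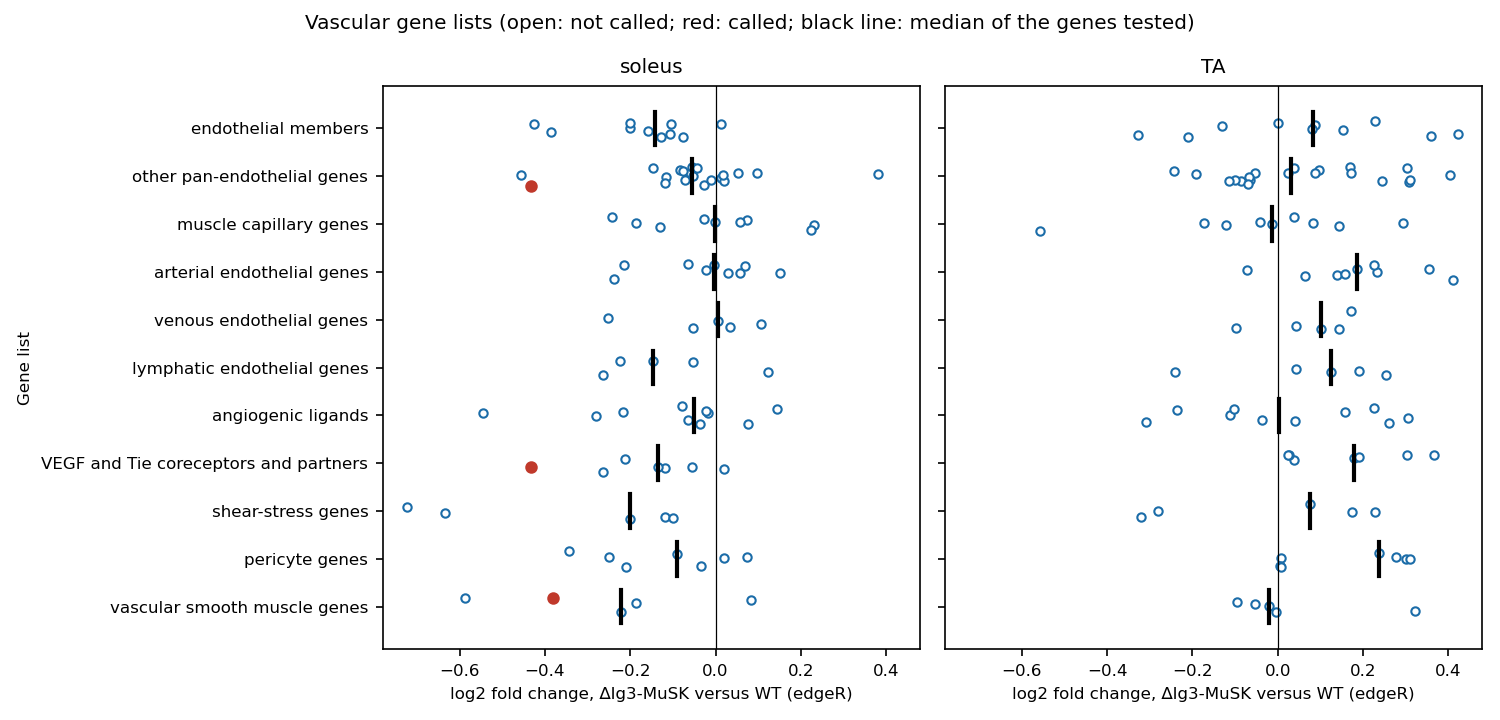
Log2 fold changes of ∆Ig3-MuSK against WT (horizontal axes) in soleus and in TA for the genes of each vascular list, with each point a gene, red points for called genes and black lines for list medians. Eng, which is in 2 lists, and Acta2 are the red points in soleus, TA has none, and the medians run from −0.22 to 0.01 in soleus and from −0.02 to 0.24 in TA.

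Markers of the other cells in the muscle differed in part between soleus and TA. Their counts in WT soleus stand against 30.2% of all genes called higher and 27.3% called lower. In WT soleus fibroblast genes were called higher in 2 and lower in 1 of 5 cases and leukocyte genes in 1 and 1 of 6, with medians of −0.11 and 0.06. Of the pericyte genes, 6 of 7 were called higher in WT soleus, among them Rgs5 (0.39, adjusted p = 4.88e-08), and Abcc9 was not (0.01). Of 5 vascular smooth muscle genes 2 were called higher in WT soleus, with Myh11 at 0.52. Red blood cell genes were called higher in 3 of 5 cases in WT soleus (Hba-a2 by 0.96, Hbb-bs not called at 0.26), and their summed level ran from 652 to 1141 CPM in WT soleus and from 346 to 664 CPM in WT TA. In ∆Ig3-MuSK soleus the red blood cell sum ran from 596 to 2324 CPM. Platelets also carry von Willebrand factor, and their genes were at 4.79 to 7.91 CPM in sum in WT soleus and 5.34 to 10.5 CPM in WT TA, with Gp9 at 0 in some libraries, Pf4 between 0.820 and 7.64 CPM and Gp1bb at 2.18 CPM or less. Some leukocytes also express Pecam1, and leukocyte genes summed to 22.1 to 53.6 CPM in WT soleus and 20.02 to 28.7 CPM in WT TA, and neither Csf1r nor Ptprc was called in any contrast. In soleus the genotype estimates of all 5 fibroblast genes (Col1a1 at −0.97 and Dcn at −0.11), all 4 tested leukocyte genes and all 8 immediate early genes (Jun at −0.18 and Nr4a1 at −0.35) were below 0. Those of all 5 red blood cell genes (median 0.29) and all 6 fast fiber genes (median 0.21) were above 0, and 0 genes of these lists were called. Slow fiber genes were called higher in WT soleus in 6 of 6 cases (Atp2a2 by 7.45) and fast fiber genes lower in 5 of 6 (Atp2a1 by −1.16, Myh4 by −3.52). The part of these other cells in the endothelial values was not tested.

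The 10 genes varied together from library to library, apart from Cldn5 and, in TA, Emcn. Correlations were computed over the 18 libraries of a muscle on deviations from the genotype mean, as a description of libraries that share preparation, depth and composition. In soleus Pearson's r among the 45 pairs ran from −0.57 to 0.88 with a median of 0.55, and all 36 pairs without Cldn5 were above 0. In TA it ran from −0.72 to 0.86 with a median of 0.40, and all 28 pairs without Cldn5 and Emcn were above 0. The closest pair in soleus was Pecam1 with Cdh5 (0.88 in soleus, 0.66 in TA). Kdr and Tek went together in TA (0.85), as did Vwf and Cdh5 (0.86). The VEGF receptors showed little relation to each other, with r of 0.02 in soleus and 0.06 in TA. Flt1 ran opposite to Cldn5 in both muscles (−0.57 and −0.72).

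**Figure D4:**
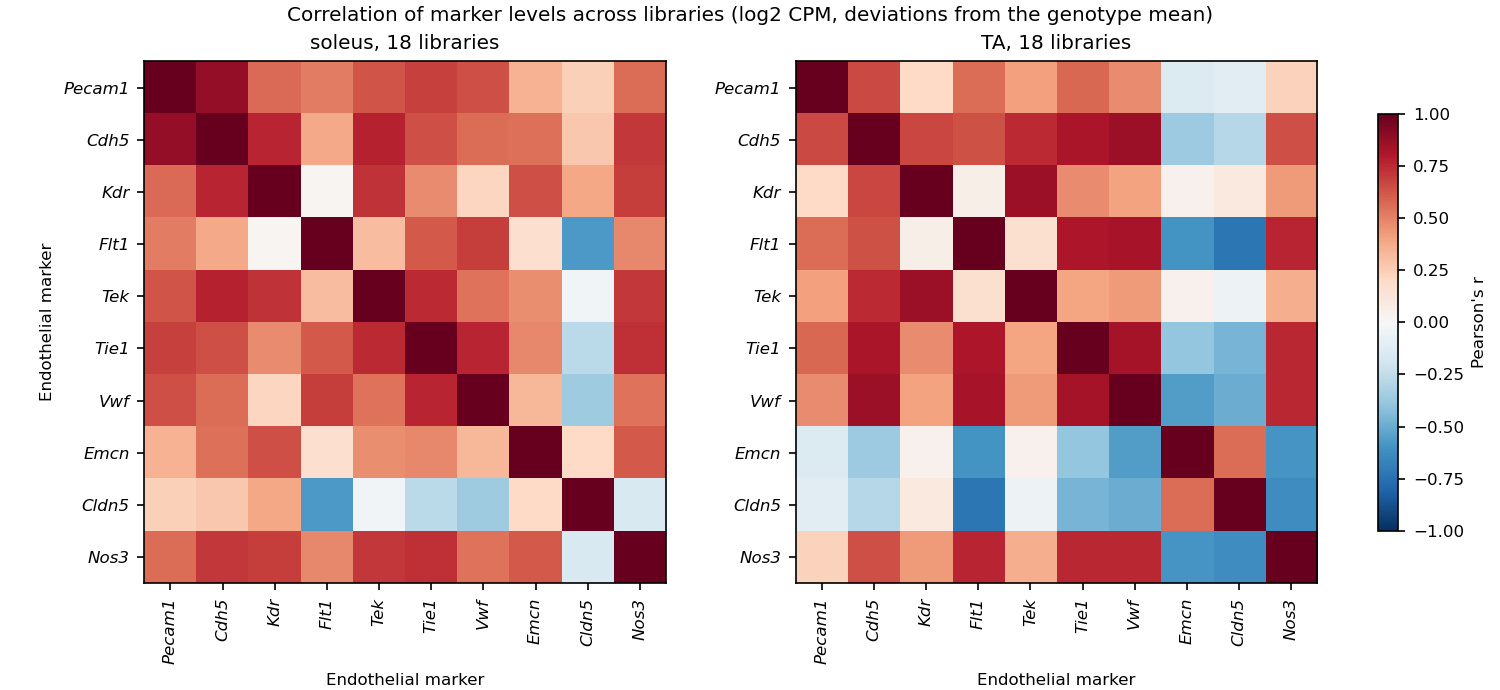
Pearson's r between each pair of the 10 endothelial genes over the 18 libraries of soleus and of TA, on log2 CPM after subtraction of the genotype mean, with red for positive and blue for negative r. All but 5 of the 45 pairs are red in soleus and 32 are red in TA, and Flt1 with Kdr is near white in both muscles at 0.02 and 0.06.

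The genes most like the mean of the 10, ranked by the lower of the soleus and TA correlations over 18 libraries each, were led by Nrp1, the neuropilin coreceptor of VEGF (r of 0.90 in soleus and 0.91 in TA). Slfn5 came next (0.87 and 0.85), and then Notch1, the receptor that restrains sprouting (0.82 and 0.83). The others of the closest 8 were Lnx2 (0.84 and 0.82), Plekhg1 (0.82 and 0.84), Itga6 (0.82 and 0.84), Adgrl2 (0.81 and 0.82) and Fryl (0.81 and 0.82). The mean of the 10 itself went with total counts at r = −0.70 in soleus and −0.17 in TA, and with the length slope at 0.48 and 0.78. The part of depth and length in this ranking was not tested.

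Since Flt1 and Kdr bind the same ligand and did not vary together, the ratio of their counts was taken in each library. It was chosen after the values had been seen and is given as a description without a test. Flt1 went with the length slope of the libraries at r = 0.78 in soleus and 0.79 in TA, and Kdr at 0.05 and 0.48. The part of gene length in the ratio was not tested. The Flt1:Kdr ratio ran from 0.812 to 1.04 in WT soleus (median 0.892) and from 0.991 to 2.72 in ∆Ig3-MuSK soleus (median 1.09). In TA it ran from 0.856 to 1.33 in WT (median 1.06) and from 1.04 to 3.61 in ∆Ig3-MuSK (median 1.27). All 9 ∆Ig3-MuSK soleus libraries and 8 of 9 ∆Ig3-MuSK TA libraries were above the WT mean, although the ranges overlapped in both muscles. The geometric mean was 1.37-fold higher in ∆Ig3-MuSK soleus and 1.43-fold higher in ∆Ig3-MuSK TA than in WT, 0.45 and 0.52 on the log2 scale. The highest ratios of soleus were those of ∆Ig3-MuSK replicates 4 (2.72) and 5 (1.98), and the highest of TA were those of ∆Ig3-MuSK replicates 5 (3.61) and 6 (2.36). These are the soleus and TA libraries of the same 2 label numbers. Without those libraries the differences were 0.20 in soleus and 0.24 in TA.

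**Figure D5:**
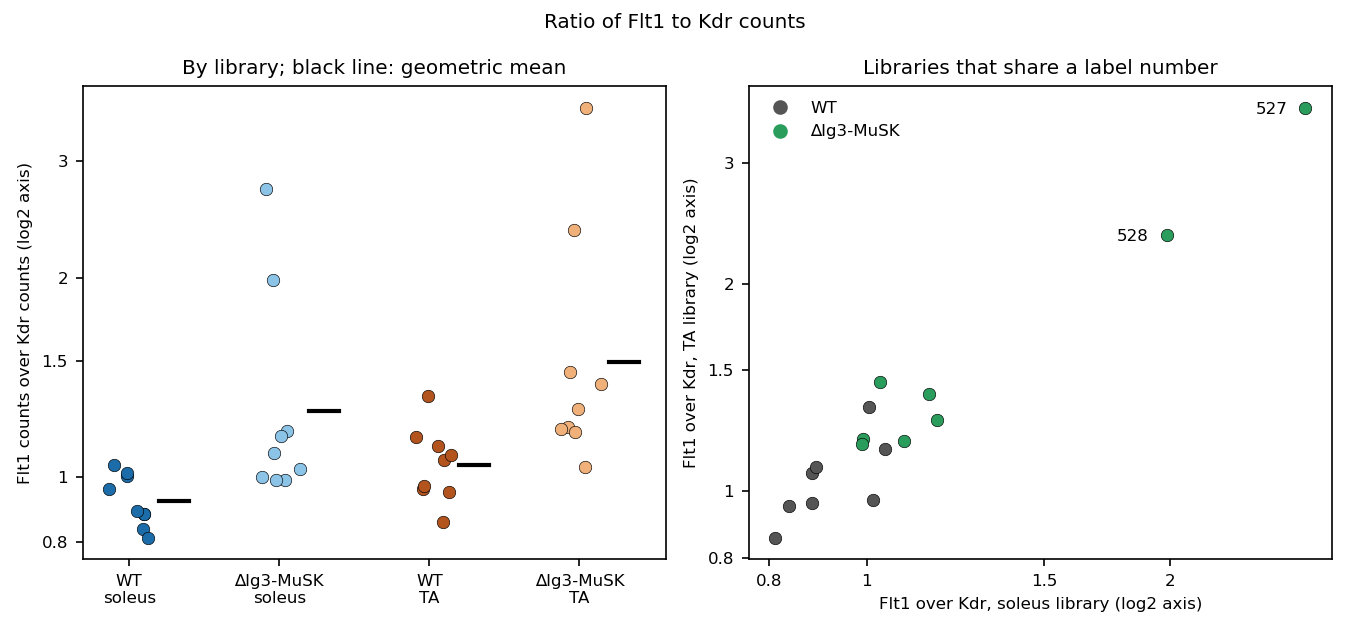
Flt1:Kdr count ratio (log2 axes) in each library of the 4 groups with a line for the geometric mean (left), and in the TA against the soleus library of each shared label number (right). The 4 libraries of the 2 label numbers marked on the right lie highest, from 1.98 to 3.61, and the geometric means are 0.922 in WT and 1.26 in ∆Ig3-MuSK soleus and 1.04 in WT and 1.49 in ∆Ig3-MuSK TA.

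Of the label numbers, 16 (8 in each genotype) were carried by both a soleus and a TA library, and the study's legend gives 1 muscle per animal, while the sources used here do not say what an equal number in both muscles marks. Over the 16 numbers 11 relations between soleus and TA levels were computed as deviations from the genotype means, those of the 10 genes and of the Flt1:Kdr ratio, whose relation is not reported because the ratio was chosen after its values were seen. Cldn5 was related between the muscles, with Pearson's r = 0.85 (permutation p = 6e-05, adjusted p = 0.00066) and Spearman's rho = 0.81 (permutation p = 0.0005). Its r was 0.83 without the 2 numbers farthest from the median, 0.92 within WT and 0.81 within ∆Ig3-MuSK. Cldn5 was also the most variable gene of the panel. The other 9 genes gave r from −0.58 (Pecam1, adjusted permutation p = 0.0991) to 0.52 (Kdr, adjusted permutation p = 0.159), and none passed after adjustment. Flt1 had Spearman's rho = 0.55 (permutation p = 0.028, not adjusted). Some differed by genotype, which was not tested. Kdr had r of 0.90 within ∆Ig3-MuSK and −0.30 within WT, Flt1 0.85 and 0.01, and Pecam1 −0.24 and −0.77. Without the 2 farthest numbers the r of Kdr was 0.09. The muscles of a label number could also part widely. WT soleus replicate 5 and WT TA replicate 5 share a number, and the first had the highest summed level of its group and the other the lowest.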

How the data were processed

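Bulk RNA-seq was measured in 36 libraries, 9 for each of WT soleus, ∆Ig3-MuSK soleus, WT TA and ∆Ig3-MuSK TA. RNA was taken from tissue kept in RNAlater, and the libraries carried no strand information. The authors trimmed reads with Trimmomatic, aligned them to mm10 (GRCm38) with GSNAP and deposited whole-number counts per Ensembl gene from HTSeq, one table per muscle, with no normalization. Tool versions, annotation release and counting mode are not given in the sources used here. The 2 tables were joined by gene ID, 51633 of 51912 IDs had a symbol, and 0 columns of other samples were present. Group and replicate came from the sample labels.

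In R 4.3.3, edgeR 4.0.16 was run on the deposited counts with filterByExpr (minimum count 10, minimum total 15), TMM factors, glmQLFit and glmQLFTest without covariates, over all genes that passed, and all 10 endothelial genes passed in every fit. Genotypes were compared within each muscle, and the muscles and the interaction in a fit of 36 libraries. Calls required p-values under 0.05 after Benjamini-Hochberg adjustment together with a 1.2-fold difference, and the interaction had no fold limit. Intervals at 95% are the estimate ± 1.96 SE, a normal approximation that is narrower than the F test gives. CPM were scaled with TMM over 36 libraries, and log2 CPM used a prior count of 2. Lengths and coordinates came from a GENCODE annotation of GRCm38. At 398 counts or more per gene and library, the spread between libraries and not counting error set the precision, and within a muscle each library carries its own label number, which the study describes as a muscle of its own animal. Of 153 pairs of libraries per muscle, 0 differed by as little as sampling noise.

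The 10 genes and the other lists were chosen with earlier results of these data known. The genes named were the 10, each angiogenic ligand, in every other list the genes called for genotype and the 2 with the highest mean CPM, and the 8 genes most like the mean of the 10. The values of 1 of the lists are not reported here. Notch1 in the muscle comparison, Flt4 beside its ligand, and the Flt1:Kdr ratio were named after their values were seen. Correlations between muscles used 100000 permutations within genotype. Alternatives were DESeq2 1.42.0, limma-voom (limma 3.58.1), RLE and upper-quartile factors, other filters, robust quasi-likelihood, no fold minimum, other sets of libraries in the fit, replicate or label number as a block, and each library left out. The fits were tested on simulated data.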

Additional observations from a re-analysis of the deposited data

Results flagged for a closer look

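A library of ∆Ig3-MuSK soleus, replicate 2, lay far below the others of its group for Tie1, at 31.9 CPM, with a gap to the next library of 0.531 of the whole range of the group, past the limit of Dixon's criterion for 9 libraries. The same library had the lowest Tek and Vwf of its group and the lowest summed level of the 10 endothelial genes. In all, 44 combinations of a gene or the sum with a group were examined in this way, and chance flags about 1 in 20.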

How the results depend on the processing

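For the 10 endothelial genes and the Flt1:Kdr ratio under alternatives other than leaving out a single library, 505 estimates kept their direction and their side of the thresholds, 14 became calls, 1 lost its call and 12 changed sign, all 12 from estimates that were not called in either fit. The ratio was among the 505 in both muscles, and no test of it is given. In soleus the genes called lower for genotype went from 0 to 1 with limma-voom and with DESeq2. In ∆Ig3-MuSK, genes called lower in soleus than TA went from 0 to 1 with RLE factors, upper-quartile factors, no filter, at least 10 counts in every library, DESeq2, no fold minimum and a fit of the 18 libraries alone. Interaction calls went from 0 to 3 with limma-voom and 1 with DESeq2.

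The sign changes were those of Tek in TA (−0.00273 with RLE factors, −0.000489 with upper-quartile factors, −0.00372 with no filter, −0.0117 with limma-voom, −0.00651 with DESeq2 and −0.0392 without WT TA replicates 3 and 5), of Cdh5 in TA (−0.00322 without those replicates), of Kdr in TA (0.00191 without the libraries of the 2 label numbers with the highest Flt1:Kdr ratios), of Flt1 in soleus (−0.0920 without those numbers and −0.00202 with the replicate block) and of Cldn5 between muscles in WT (0.21 with limma-voom and 0.13 without WT TA replicates 3 and 5). The cause was not tested. The left-out libraries were chosen after seeing the data.

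With each library left out in turn, the called genes numbered 0 to 1 lower for genotype in soleus, 6 to 7 higher in WT soleus, 4 to 5 higher and 0 to 1 lower in ∆Ig3-MuSK soleus and 0 to 2 for the interaction, and 0 in every case for genotype in TA. The estimates that crossed 0 were those of Flt1 in soleus (−0.0389 to 0.0619), Tek in TA (−0.0267 to 0.0257), Cldn5 between muscles in WT (−0.18 to 0.0367) and in ∆Ig3-MuSK (−0.17 to 0.0861), Tie1 between muscles in ∆Ig3-MuSK (−0.0390 to 0.0296) and Cldn5 in the interaction (−0.13 to 0.13).

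The pairing of libraries was not established. TA and soleus libraries that share a label number correlated in their deviations with r from −0.00084 to 0.351, above 0.1 in 10 of 16 pairs, and 8 of 16 correlated best with their own number. With the label number as a block, 7 of the 10 genes were called higher in WT soleus, 4 in ∆Ig3-MuSK soleus and 0 in the interaction. WT and ∆Ig3-MuSK libraries with equal replicate numbers were above 0.1 in 3 of 9 soleus and 2 of 9 TA pairs. With the replicate block 0 of the 10 were called in either muscle. In soleus Nos3 passed the p limit with this block but not the fold limit (−0.21, edgeR adjusted p = 0.0432), and Flt1 stood at −0.00202. Over all genes this block called 91 higher and 256 lower in soleus, against 71 and 114 without it, and 0 in TA.

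Counts over all genes moved more. In soleus leaving out 1 library gave from 14 higher and 8 lower (without WT soleus replicate 5) to 233 and 369 (without WT soleus replicate 1), with 15 and 14 without WT soleus replicate 6 and 16 and 18 without replicate 4. There limma-voom called 263 higher and 390 lower and DESeq2 165 and 324. In TA, against 3 and 0, limma-voom called 120 and 30, DESeq2 169 and 68, and a fit of all 36 libraries 485 and 207. For the interaction, against 0, limma-voom called 716 and 636 and DESeq2 776 and 323. The fits of Eng and Acta2 with 1 library left out or another tool were chosen after seeing the data. Counting error was small for the 10 genes at these depths. Muscle and library kit, genotype and the order of label numbers, and cell number and RNA per cell cannot be told apart here.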
